A study of Mus musculus with 12 samples.

Results

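The TGF-β1 response of control cardiac fibroblasts was taken as the comparison of 3 libraries of TGF-β1-stimulated control cells with 3 libraries of unstimulated control cells, which are 6 of the 12 RNA-Seq libraries of the series. Of the 35275 genes in the deposited count table, 14553 had enough reads in these 6 libraries to be tested. All cells came from the hearts of 12-week-old C57BL/6 mice with a floxed Smad7 gene, were grown to passage 2, and were infected for 48 h at a multiplicity of infection of 100. Both control groups received an adenovirus without Cre, which the sample labels describe as expressing green fluorescent protein (GFP) and the study's text as empty, so that the floxed Smad7 gene was left intact. The stimulated group then received TGF-β1 at 10 ng/ml, for 2 h by one label field and 4 h by another, and the unstimulated group received none. Smad7-KO cells, infected with Cre adenovirus and stimulated the same way, gave 6 other libraries in which the same contrast was measured. The labels do not say whether the replicates came from separate animals or cultures, so the p values measure the spread between these libraries, which may be technical. The titles of the stimulated control libraries all carry the same sample number, whereas those of the unstimulated control libraries carry different ones. Whether the stimulated control libraries share a sample is not given.

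TGF-β1 binds a pair of serine/threonine kinase receptors that phosphorylate Smad2 and Smad3, which enter the nucleus with Smad4 and act on genes together with other transcription factors. Smad7 is an inhibitory Smad that is itself induced by the pathway and restrains signaling by the receptors. In cardiac fibroblasts TGF-β1 is known for driving matrix synthesis and conversion to myofibroblasts, contractile cells that express α-smooth muscle actin.

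The control libraries held 19056916 to 24396712 counts each. Fibroblast markers were expressed in every library, with summed levels of 3829 to 4113 FPKM (the count scaled by gene length and library total) unstimulated and 3663 to 3884 FPKM with TGF-β1 over 16 genes, although Lum stayed under 1 FPKM. Markers of macrophages were also abundant, at 13909 to 21437 FPKM unstimulated and 13929 to 16407 FPKM with TGF-β1 over 21 genes. Lyz2 and the C1q genes carried much of that sum, and Lyve1 was under 1 FPKM. The libraries therefore did not hold transcripts of fibroblasts alone. Endothelial markers summed to 196 to 245 FPKM unstimulated and 180 to 201 FPKM with TGF-β1, and lymphocyte and neutrophil markers to 5.47 to 15.1 FPKM over all 6 libraries, with 2 of their 15 genes at 0. In bulk RNA, fewer cells of a type and less RNA per cell cannot be told apart.

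TGF-β1 changed 391 genes in control fibroblasts, of which 260 rose and 131 fell, at a Benjamini-Hochberg adjusted p of at most 0.05 (quasi-likelihood test, edgeR). These were 2.69% of the genes tested, 1.79% for those that rose and 0.9% for those that fell, and these shares are the background for each list of genes. Levels of single genes are given in CPM, counts scaled by library size. The median fold of the genes that rose was 2.68, and the genes that fell were left at a median of 0.415 times the unstimulated level. A change of at least 2-fold was fitted for 202 genes that rose and 102 that fell. All 391 genes had every stimulated library beyond every unstimulated library, as did 20.2% of all genes tested, and 380 were protein coding. With the gene length trend of each library removed, as described further on, 609 genes rose and 489 fell, a more even split. The count depended on single libraries. It was 673 without unstimulated replicate 2 and 609 without unstimulated replicate 3, but 40, 64 and 15 without TGF-β1 replicates 1, 2 and 3. Without unstimulated replicate 1 edgeR called 0 genes, with 1402 at an unadjusted p under 0.05. The fitted change of all 391 genes kept its sign in each of these 6 fits.

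**Figure D1:**
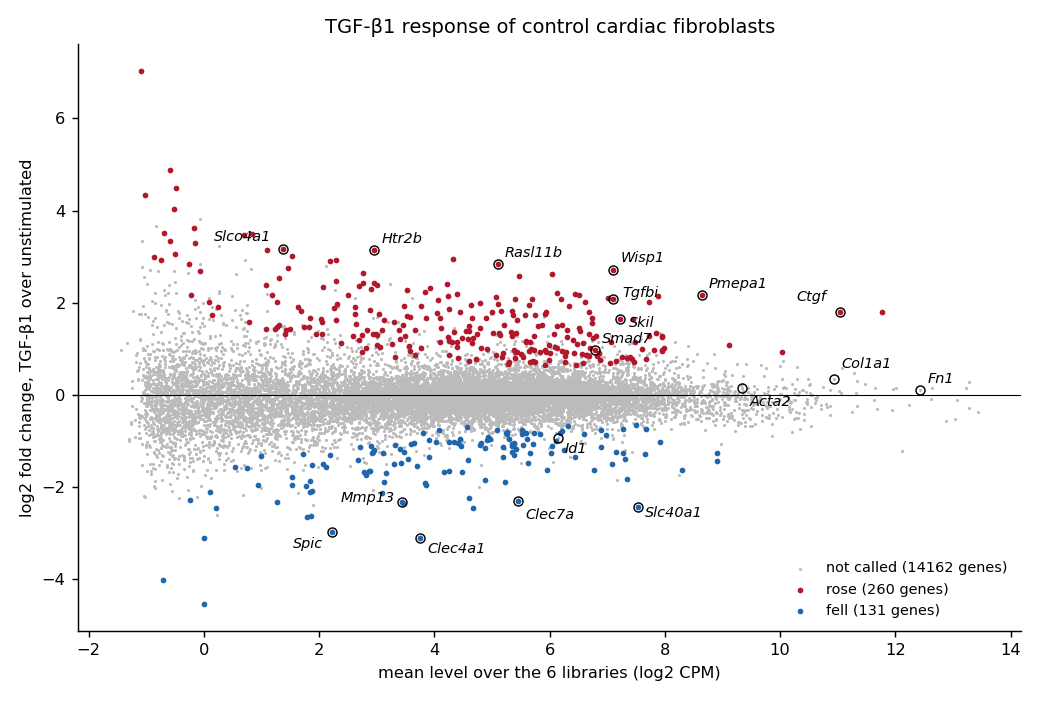
Log2 fold change of TGF-β1 over unstimulated control libraries (vertical) against the mean level in log2 CPM (horizontal), with 1 point for each of the 14553 genes tested. Red points are the 260 genes that rose and blue points the 131 that fell, and circled genes are named in the text. Ctgf rose at a high level, where Col1a1, Fn1 and Acta2 lie near 0.

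Of 40 tested genes known as early TGF-β targets, 15 rose, 2 fell and 23 did not pass the test, and the list's median log2 fold change was 0.69, against -0.04 over all genes tested. This list and the others were chosen with earlier results of these data known. Counts of list members are edgeR calls unless another test is named, and 29 of 36 lists had more members called, and 7 as many, with the length trend removed and likewise with DESeq2. Ctgf, a matricellular protein also named CCN2, was at 783, 1309 and 722 CPM unstimulated and at 3096, 3629 and 3043 CPM with TGF-β1. Its unstimulated replicate 2 stood above the other unstimulated libraries and still well below every stimulated library, and the fitted fold was 3.47 (log2 fold change 1.80, standard error 0.271, adjusted p = 0.0221). Wisp1, a secreted protein of the same CCN family, was at 34.7, 24.1 and 49.8 CPM unstimulated and at 281, 215 and 222 CPM with TGF-β1, a fold of 6.60 (adjusted p = 0.00803). Tgfbi, a matrix protein named for its induction by TGF-β, went from 56.2, 53.1 and 48.5 CPM to 217, 215 and 234 CPM, a fold of 4.22 (adjusted p = 0.00266).

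Other members of the early target list that rose covered several functions. Hbegf, a ligand of the EGF receptor, was at 28.1, 31.5 and 23.9 CPM unstimulated and at 124, 121 and 112 CPM with TGF-β1 (fold 4.27, adjusted p = 0.00281). Spsb1, an adaptor of a ubiquitin ligase, and Bhlhe40, a transcriptional repressor, had very similar levels within each group and folds of 2.85 and 2.84 (adjusted p = 0.00436 for each). Nox4, the NADPH oxidase that yields hydrogen peroxide, was at 7.13, 4.74 and 8.58 CPM unstimulated and at 21.4, 15.2 and 18.1 CPM with TGF-β1, a fold of 2.67 (adjusted p = 0.0409). Members that rose also included Gpr56, Nuak1, Arhgef40, Tspan2, Itga5, Sphk1 and Gadd45b, with log2 fold changes of 1.92, 1.32, 1.24, 1.15, 1.14, 1.02 and 1.01. The 2 members that fell were Sik1, a salt-inducible kinase, with a log2 fold change of -1.06, and Snai2, a repressor of epithelial genes. Snai2 was at 11.2, 13.1 and 11.6 CPM unstimulated and at 4.85, 5.21 and 5.05 CPM with TGF-β1, a fold of 0.420 (adjusted p = 0.0131). Il11, a cytokine of the IL-6 family, was at 0.136, 0.743 and 0.296 CPM unstimulated and at 2.63, 1.68 and 2.77 CPM with TGF-β1. Its groups did not overlap, but it rests on few reads and its adjusted p was 0.0669 (0.0165 with the length trend removed). Klf10, an early gene named for TGF-β, was at 16.1, 16.3 and 18.0 CPM against 21.1, 21.0 and 22.3 CPM, also without overlap, with an adjusted p of 0.321.

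Inhibitors of the pathway were among the genes induced. Of 18 tested inhibitors and corepressors 5 rose and none fell in edgeR, where 1 fell at an unadjusted p under 0.05 and 1 in DESeq2 (8 rose and 1 fell once the gene length trend of each library was removed), and the list's median log2 fold change was 0.37. Pmepa1, a membrane protein that sequesters receptor-activated Smads, was at 142, 158 and 137 CPM unstimulated and at 627, 661 and 669.8 CPM with TGF-β1, a fold of 4.47 (log2 fold change 2.16, standard error 0.143, adjusted p = 0.00266). Smad7 (ENSMUSG00000025880), which is intact in these cells, was at 72.3, 74.6 and 77.4 CPM unstimulated and at 145, 151 and 142 CPM with TGF-β1. The spread within both groups was small beside the difference, and the fold was 1.95 (log2 fold change 0.97, standard error 0.121, adjusted p = 0.0125). Skil, which encodes the Smad corepressor SnoN, was at 59.1, 65.9 and 91.2 CPM unstimulated and at 265, 195 and 215 CPM with TGF-β1 (fold 3.12, adjusted p = 0.0141). Tgif1, a homeobox corepressor of Smads, went from 53.5, 52.4 and 45.6 CPM to 95.9, 96.6 and 102 CPM (fold 1.94, adjusted p = 0.0160). Ldlrad4, which like Pmepa1 limits Smad phosphorylation, had a log2 fold change of 1.83 (adjusted p = 0.0424).

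**Figure D2:**
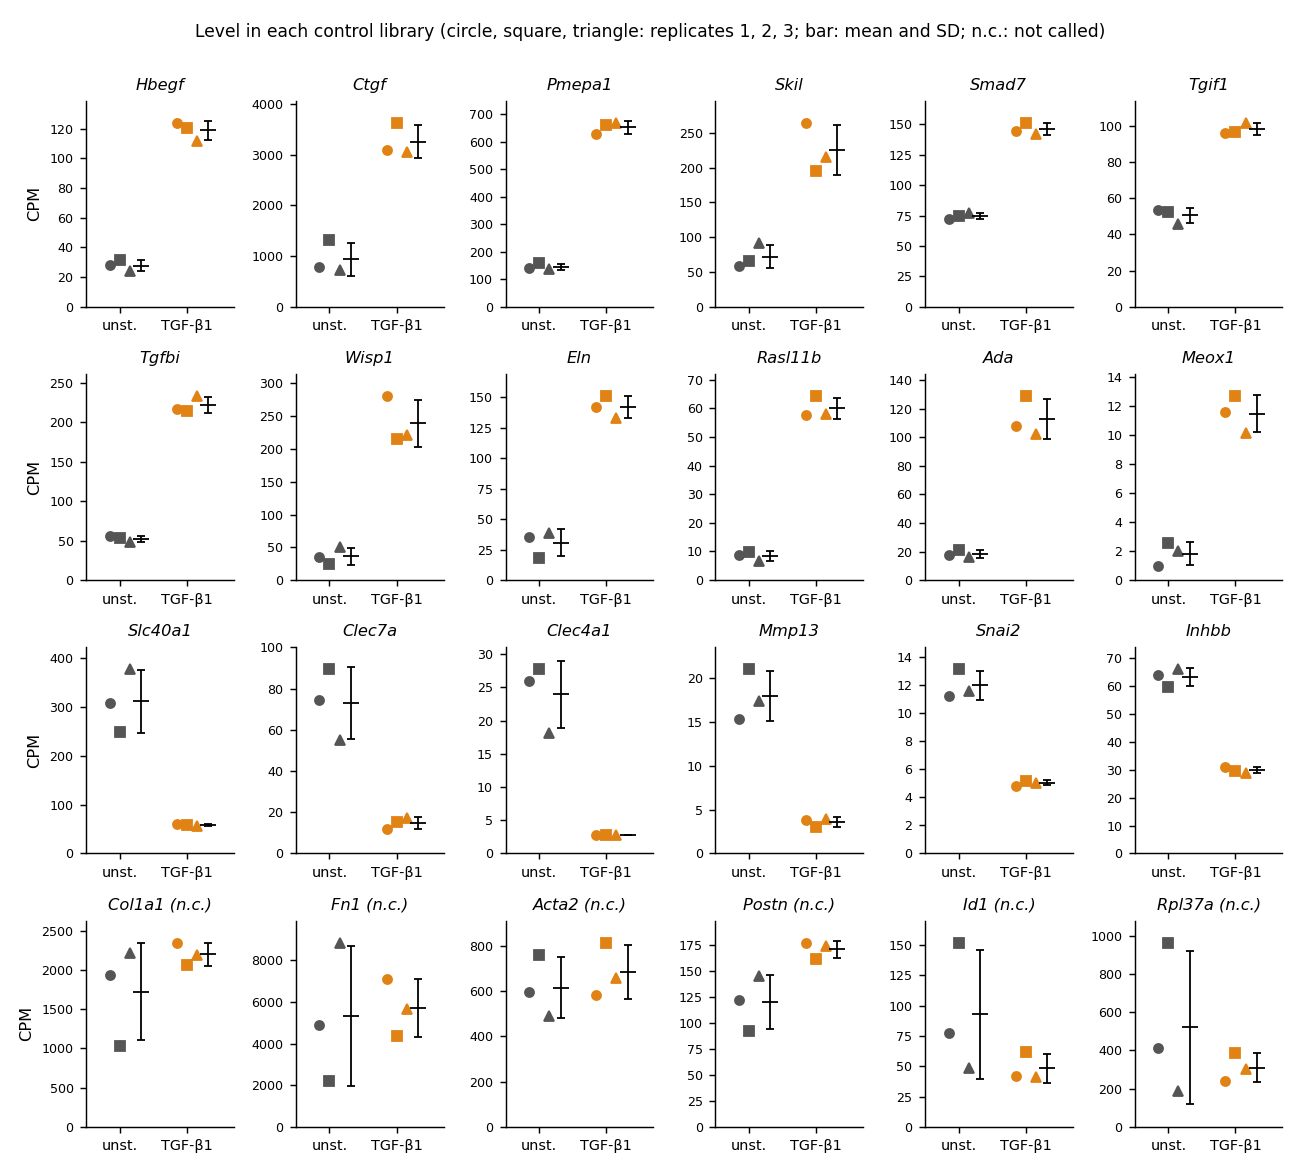
Level in CPM (vertical, from 0) of 24 named genes in each unstimulated (grey) and TGF-β1-stimulated (orange) control library. Circles, squares and triangles are replicates 1, 2 and 3, bars give the mean and SD, and n.c. marks genes that were not called. The first 2 rows rise and the row below them falls without overlap, whereas in the last row the unstimulated replicates of every gene spread over a wider range than the stimulated ones.

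Smad3 and Smad4 bind short DNA elements with the letters CAGAC. Windows of 2 induced genes that hold these letters at 2 places are shown as examples. Olfm2 has such a window too, and the Megf6 window holds the letters at 3 places. Sequences run from 250 bases before to 50 bases after an annotated start of the gene and are those of RefSeq on GRCm38.p6. Capitals mark CAGAC, or GTCTG where the other strand carries it. The Tgif1 window, 1 of 5 listed for different starts of that gene, is chr17:70851685-70851984 on the minus strand, with matches that begin 191 and 59 bases before that start. Of the other Tgif1 windows 2 hold 1 match and 2 hold 0. The single Ada window is chr2:163750190-163750489 on the minus strand, with matches that begin 156 and 105 bases before the start.
Tgif1: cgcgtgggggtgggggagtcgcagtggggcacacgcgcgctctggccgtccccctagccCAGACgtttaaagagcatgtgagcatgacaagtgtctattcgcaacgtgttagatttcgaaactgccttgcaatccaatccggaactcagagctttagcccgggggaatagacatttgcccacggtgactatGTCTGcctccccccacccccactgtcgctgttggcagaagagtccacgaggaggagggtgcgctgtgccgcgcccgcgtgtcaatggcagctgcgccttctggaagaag
Ada: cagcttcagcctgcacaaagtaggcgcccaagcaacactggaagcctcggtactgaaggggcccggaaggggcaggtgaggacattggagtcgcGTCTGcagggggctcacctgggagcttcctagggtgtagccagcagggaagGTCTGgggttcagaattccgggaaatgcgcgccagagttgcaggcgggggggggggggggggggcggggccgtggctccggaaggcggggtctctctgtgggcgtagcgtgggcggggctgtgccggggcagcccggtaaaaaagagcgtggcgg
Of 22 genes that rose and belong to the always named or most strongly induced genes, 12 had windows among those considered here. These were 19 windows, of which 12 held a match and 4 held 2 or more. Windows of part of the genome, including any of Smad7, were left out of this selection. A gene outside the 12 may therefore still have a window. The letters are common, being present in 49.6% of all 32851 windows and in 47.8% of the windows of tested genes. They were present in 54.1% of 259 windows of genes that rose and in 44.3% of 115 windows of genes that fell. At 2 or more places they were present in 16.2% of all windows, 14.96% of those of tested genes, 21.6% for genes that rose and 10.4% for genes that fell. A match describes the letters of a window and not a bound site.

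Of the 15 called genes that rose most at a mean log2 CPM of 1 or more, 1, Wisp1, belongs to the early target list. Slco4a1, a transporter of organic anions, was at 0.409, 0.800 and 0.296 CPM unstimulated and at 3.96, 4.47 and 4.95 CPM with TGF-β1, a fold of 9.05 (adjusted p = 0.0111). Htr2b, the serotonin 2B receptor, was at 1.18, 0.857 and 2.54 CPM unstimulated and at 12.6, 12.8 and 16.0 CPM with TGF-β1, a fold of 8.88 (adjusted p = 0.0131). Rapgef4, a cAMP-activated exchange factor also named Epac2, went from 0.454, 0.743 and 0.634 CPM to 5.29, 4.59 and 5.00 CPM, a fold of 8.12 (adjusted p = 0.00446). These were low in every unstimulated library and separated clearly, but the fitted folds of Slco4a1 and Rapgef4 depend on few unstimulated reads. Rasl11b, a small GTPase of the Ras family, and Ada, adenosine deaminase, rose from higher levels. Rasl11b was at 8.63, 9.88 and 6.55 CPM unstimulated and at 57.6, 64.3 and 57.9 CPM with TGF-β1 (fold 7.18, adjusted p = 0.00266). Ada was at 17.3, 21.3 and 16.3 CPM unstimulated and at 108, 129 and 102 CPM with TGF-β1 (fold 6.17, adjusted p = 0.00266). Fam46c, a noncanonical poly(A) polymerase, went from 10.7, 10.9 and 16.3 CPM to 78.1, 65.8 and 84.6 CPM (fold 6.03, adjusted p = 0.00446). Trem1, an activating receptor of myeloid cells, rose 7.67-fold, and its TGF-β1 replicate 2, at 5.74 CPM, was the lowest of the stimulated libraries, which were otherwise at 10.1 and 9.71 CPM. The other genes among the 15 were AI504432, Olfm2, Megf6 and Mfsd2a, a lysophospholipid transporter, with folds of 7.76, 7.51, 5.81 and 5.54, and Wnt10b, Heyl and Meox1.

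Components of the Wnt and Notch pathways changed in both directions. Of 40 tested members 4 rose and 2 fell, with a median log2 fold change of 0.03. Wnt10b, a Wnt ligand, was at 0.0908, 0.800 and 0.380 CPM unstimulated and at 3.47, 3.98 and 3.50 CPM with TGF-β1 (fitted log2 fold change 3.14, standard error 0.562, adjusted p = 0.0390). Heyl, a transcriptional repressor downstream of Notch receptors, was at 0.863, 0.171 and 0.930 CPM unstimulated and at 4.77, 4.10 and 4.95 CPM with TGF-β1 (adjusted p = 0.0349). Both were near the lower limit of detection without TGF-β1, so their fitted folds depend on few reads. The ligand Wnt2 and Nkd2, an antagonist of Dishevelled, had log2 fold changes of 1.90 and 0.94. The Wnt antagonist Dkk2 and Nrarp, a feedback inhibitor of Notch, fell with log2 fold changes of -1.42 and -2.10. Notch4, a Notch receptor outside this list, rose with a log2 fold change of 2.41 (adjusted p = 0.00266).

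Transcription factors of mesenchymal and other lineages gave 3 genes that rose and 1 that fell, Snai2, of 35 tested. Meox1, a homeobox factor, was at 0.954, 2.57 and 1.99 CPM unstimulated and at 11.6, 12.7 and 10.2 CPM with TGF-β1, a fold of 6.29 (adjusted p = 0.0144). Foxc2, a forkhead factor, went from 11.2, 13.3 and 11.5 CPM to 35.1, 42.5 and 37.2 CPM, a fold of 3.19 (adjusted p = 0.00492). Runx2, the osteogenic Runt factor, had a log2 fold change of 0.87 and an adjusted p of 0.0442, which became 0.0705 once the gene length trend was removed. Among 14 tested Krüppel-like factors none rose by edgeR or DESeq2, with 2 higher at an unadjusted p under 0.05, and 2 fell, and the list's median log2 fold change was -0.14. Klf15 was at 11.9, 11.4 and 9.43 CPM unstimulated and at 3.03, 4.02 and 3.40 CPM with TGF-β1 (fold 0.320, adjusted p = 0.0111). Klf4 was at 100.3, 68.2 and 99.9 CPM unstimulated and at 44.9, 42.2 and 38.0 CPM with TGF-β1 (fold 0.466, adjusted p = 0.0339). In both the groups stood apart. Of 36 immediate early and MAPK feedback genes, Egr2 and Mafk rose and Dusp1, a phosphatase that inactivates MAP kinases, fell. Dusp1 was at 71.4, 78.4 and 69.2 CPM unstimulated and at 24.4, 28.5 and 25.5 CPM with TGF-β1 (fold 0.358, adjusted p = 0.00492). Of 18 clock genes Bhlhe40, Arntl and Bhlhe41 rose and Dbp fell.

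Matrix genes responded unevenly. Of 36 tested matricellular and fibrillar proteins 4 rose and none was called lower by edgeR or DESeq2, with 1 lower at an unadjusted p under 0.05 (7 rose and 1 fell with the length trend removed), with a median log2 fold change of 0.10. Eln, which encodes elastin, was at 35.5, 18.4 and 38.5 CPM unstimulated and at 142, 151 and 133 CPM with TGF-β1, a fold of 4.60 (adjusted p = 0.0137). Ltbp2, a latent TGF-β binding protein of elastic fibres, was at 18.1, 7.60 and 22.1 CPM unstimulated and at 79.6, 53.6 and 70.8 CPM with TGF-β1 (fold 4.25, adjusted p = 0.0444). Unstimulated replicate 2 was the lowest library for both. Mfap4, a microfibril-associated protein, rose from 31.0 ± 3.34 to 75.0 ± 4.53 CPM (SD, n = 3; fold 2.41), and Tgfbi was the fourth. Of 34 tested collagen chains only Col8a2, a short-chain collagen, was called, at 1.27, 1.03 and 1.44 CPM unstimulated and 5.69, 3.89 and 4.52 CPM with TGF-β1 (fold 3.74, adjusted p = 0.0153). With 2.94% of its members called, the collagen list stood near the background. Tgm2, a crosslinking transglutaminase, was the only one called by edgeR of 27 genes for collagen crosslinking and hydroxylation (fold 2.15). With the length trend removed 5 of these rose, Loxl3, Plod1, Loxl1 and Plod2 besides Tgm2, as did 6 by DESeq2. Chsy1, a chondroitin sulfate synthase, was the only one called by edgeR of 32 for proteoglycans and hyaluronan (fold 2.22, adjusted p = 0.0468, or 0.0652 with the length trend removed).

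Col1a1, the main chain of type I collagen, was at 1929, 1025 and 2215 CPM unstimulated and at 2347, 2058 and 2191 CPM with TGF-β1. The groups overlapped, and the fitted values were a log2 fold change of 0.35, a standard error of 0.292 and an adjusted p of 0.730. Fn1, fibronectin, was at 4909, 2186 and 8845 CPM unstimulated and at 7107, 4352 and 5661 CPM with TGF-β1, so that the unstimulated libraries alone spanned a wider range than the stimulated ones (log2 fold change 0.10, standard error 0.483, adjusted p = 0.959). With a standard error of this size, a change in Fn1 below the spread of its replicates was not detectable. Postn, the matricellular protein periostin, was at 122, 92.5 and 145 CPM against 177, 161 and 173 CPM without overlap, and its adjusted p was 0.289 (0.0319 with the length trend removed). Acta2, α-smooth muscle actin, was at 595, 761 and 492 CPM against 582, 815 and 658 CPM, with overlap (log2 fold change 0.15, adjusted p = 0.832). Among 36 tested contractile and stress fibre genes edgeR called 0, with 2 higher at an unadjusted p under 0.05, and 2 were called higher by DESeq2 and 2 with the length trend removed, and the list's median log2 fold change was 0.15. Csrp2, a cytoskeletal LIM protein, had the smallest adjusted p of the list at 0.154.

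Proteases and adhesion receptors were called in small numbers. Mmp13, a collagenase, fell from 15.3, 21.0 and 17.3 CPM to 3.84, 2.99 and 3.93 CPM (fold 0.201, adjusted p = 0.00455). Adamts5, an aggrecanase, fell from 596, 656 and 781 CPM to 308, 279 and 262 CPM (fold 0.417, adjusted p = 0.0137). Adam12, a metalloprotease also used as a marker of activated mesenchymal cells, rose with a fold of 4.53 (adjusted p = 0.0222), and these 3 were the genes called by edgeR of 37 metalloproteases and inhibitors. With the length trend removed 5 rose and 5 fell, among them Adamts1 with a log2 fold change of -1.27 (adjusted p = 0.000779), and DESeq2 called 4 in each direction. Among 20 integrins, the α5 subunit Itga5 of the fibronectin receptor rose from 118, 93.2 and 121 CPM to 245, 235 and 255 CPM. Itgb5, a partner of the αv subunit, rose from 784, 678 and 709.6 CPM to 1308, 1396 and 1427 CPM. Their folds were 2.21 and 1.90 (adjusted p = 0.0137 and 0.0263), and no library overlapped.

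**Figure D3:**
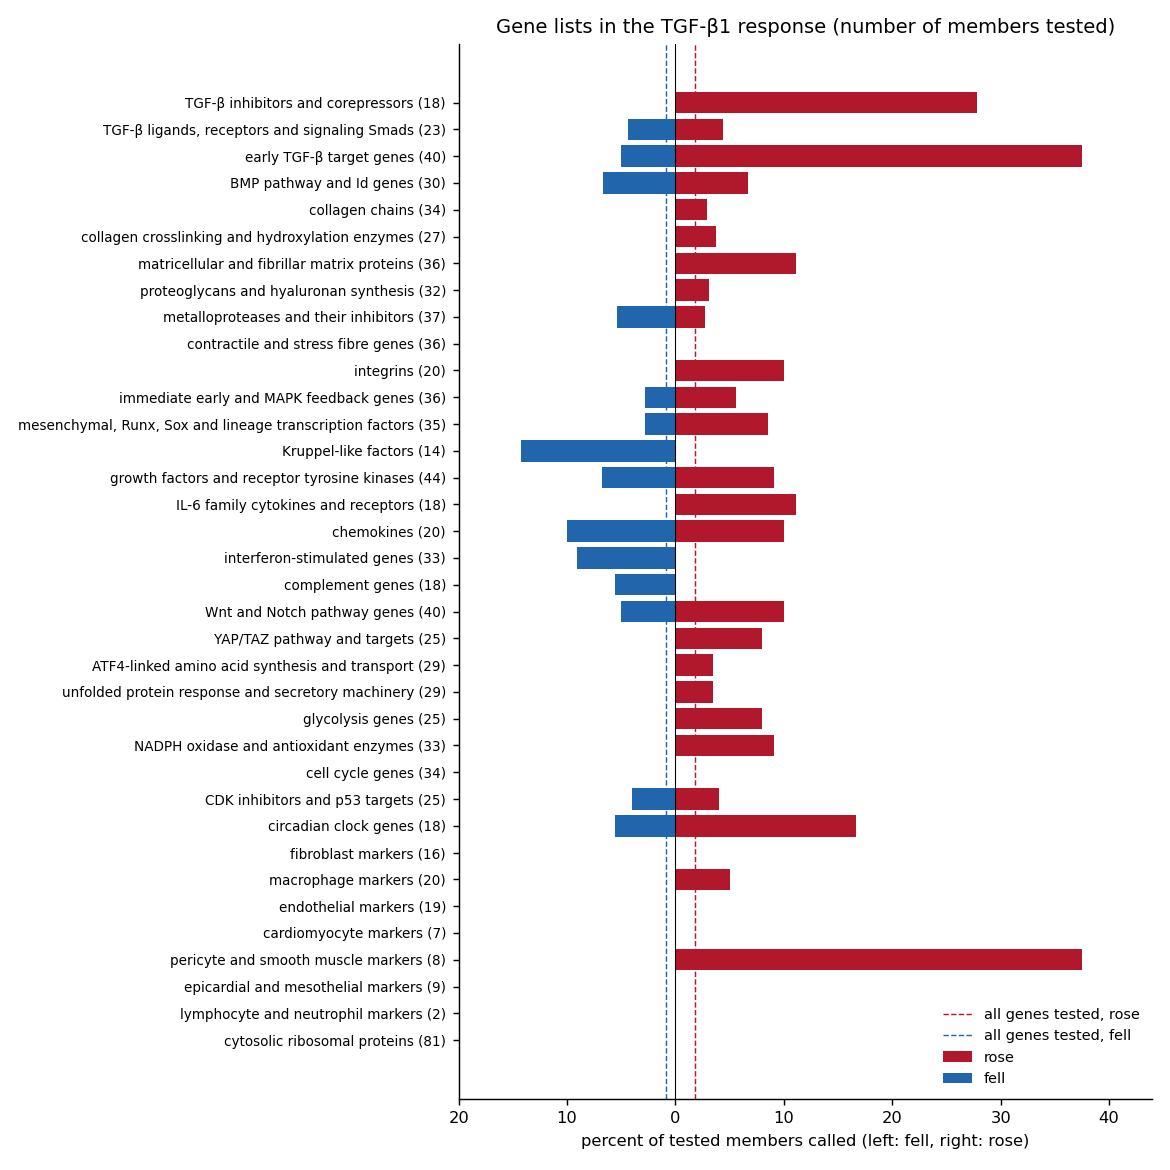
Share of the tested members of each of 36 gene lists (horizontal, percent) that rose (red, right) or fell (blue, left) with TGF-β1 in the 6 control libraries, with the number tested in parentheses. Dashed lines give the shares over all genes tested, 1.79% and 0.9%. The early targets, the TGF-β inhibitors and the short list of 8 pericyte and smooth muscle markers have the longest bars, and no contractile, cell cycle or ribosomal protein gene was called in this edgeR test.

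Secreted growth factors and antagonists of related ligands changed as well. Of 30 genes of the BMP pathway and its targets, the antagonists Nog and Fst rose, and Inhbb, a subunit of activin B and inhibin B, and Atoh8, a transcription factor, fell. Nog, which encodes the BMP antagonist noggin, was at 3.36, 3.26 and 2.87 CPM unstimulated and at 10.5, 12.2 and 11.5 CPM with TGF-β1 (fold 3.60, adjusted p = 0.00492). Atoh8 was at 102, 101 and 78.0 CPM unstimulated and at 28.6, 33.1 and 29.0 CPM with TGF-β1 (fold 0.323, adjusted p = 0.00593). Inhbb was at 63.8, 59.6 and 65.9 CPM unstimulated and at 31.0, 29.7 and 28.8 CPM with TGF-β1 (fold 0.472, adjusted p = 0.0106). All 3 were tight within groups. Id1, a helix-loop-helix inhibitor and classic BMP target, was not called, at 77.6, 152 and 48.7 CPM against 41.7, 62.0 and 41.2 CPM (log2 fold change -0.94, standard error 0.414, adjusted p = 0.410). Its groups overlapped, and unstimulated replicate 2 was the highest library.

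Among 44 growth factors and receptor tyrosine kinases 4 rose and 3 fell. Ngfr, the low-affinity neurotrophin receptor, was at 0.454, 0.114 and 0.211 CPM unstimulated and at 3.35, 3.11 and 2.72 CPM with TGF-β1 (adjusted p = 0.0131). Bdnf, a ligand of the neurotrophin family, was at 115, 147 and 124 CPM unstimulated and at 259.8, 268 and 249 CPM with TGF-β1 (fold 2.01, adjusted p = 0.0186). Both separated fully, Ngfr from a level of few reads. Hbegf and Vegfa also rose, Vegfa with a log2 fold change of 0.70. Kitl, the ligand of Kit, was at 49.3, 59.7 and 68.8 CPM unstimulated and at 25.7, 23.6 and 23.3 CPM with TGF-β1 (fold 0.409, adjusted p = 0.0132). The hepatocyte growth factor receptor Met and Fgf7, a ligand for epithelial cells, fell with log2 fold changes of -1.33 and -0.96. Of the ligands, receptors and signaling Smads of the TGF-β pathway itself, edgeR called 1 of 23 higher, Ltbp2, and 1 lower, Nrros, which anchors latent TGF-β1 on myeloid cells. Nrros was at 129, 129.8 and 116 CPM unstimulated and at 49.7, 45.6 and 51.4 CPM with TGF-β1 (fold 0.391, adjusted p = 0.00541). DESeq2 called 4 of these genes higher and 1 lower. With the length trend removed 4 rose, Ltbp2, Tgfbr1, Acvr1 and Ltbp1, and 5 fell, Nrros, Smad9, Tgfbr3, Smad3 and Tgfbr2. In that fit the receptor Tgfbr1 had a log2 fold change of 1.03 (adjusted p = 0.00212), against -0.42 for the receptor Tgfbr2 (adjusted p = 0.0421) and -0.52 for Smad3 (adjusted p = 0.0291).

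Of 18 cytokines and receptors of the IL-6 family, Il6 and Lif rose. Il6 was at 18.9, 27.7 and 14.8 CPM unstimulated and at 74.2, 85.8 and 77.6 CPM with TGF-β1 (fold 3.88, adjusted p = 0.0131). Lif was at 14.7, 9.94 and 16.7 CPM unstimulated and at 58.8, 50.1 and 54.7 CPM with TGF-β1 (fold 3.95, adjusted p = 0.00881). Of 20 chemokines 2 rose and 2 fell. Cx3cl1, the membrane-bound chemokine fractalkine, went from 20.6, 16.0 and 22.4 CPM to 51.6, 50.0 and 48.1 CPM (fold 2.53, adjusted p = 0.0121), and Cxcl14 rose with a fold of 2.50. Ccl3, a chemoattractant of leukocytes, went from 58.5, 75.0 and 42.8 CPM to 11.8, 16.9 and 18.8 CPM (fold 0.270, adjusted p = 0.0189), and Ccl9 fell with a fold of 0.391. Of 33 interferon-stimulated genes none was called higher by edgeR, with or without the length trend, or by DESeq2 (1 was higher at an unadjusted p under 0.05), and 3 fell, Ifit3, Gbp7 and Rsad2, with folds of 0.423, 0.352 and 0.319. C5ar1, the receptor of complement C5a, was the only one called of 18 complement genes, with a fold of 0.598.

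Genes that fell most, under the same limit on level, included several known mainly from macrophages and dendritic cells. Clec4a1, a C-type lectin receptor, was at 26.0, 27.7 and 18.2 CPM unstimulated and at 2.75, 2.83 and 2.72 CPM with TGF-β1, a fold of 0.116 (log2 fold change -3.11, standard error 0.215, adjusted p = 0.00266). It lies beside closely similar lectin genes, and how reads that match more than 1 of them were counted is not given. Clec7a, the β-glucan receptor Dectin-1, was at 74.7, 89.4 and 55.0 CPM unstimulated and at 11.8, 15.1 and 17.4 CPM with TGF-β1 (fold 0.202, adjusted p = 0.00772). Slc40a1, the iron exporter ferroportin, was at 308, 248 and 376 CPM unstimulated and at 60.3, 58.5 and 55.1 CPM with TGF-β1 (fold 0.187, adjusted p = 0.00376). Each was several times lower in every stimulated library. Spic, an Ets factor of iron-recycling macrophages, went from 8.31, 8.74 and 7.61 CPM to 1.01, 1.60 and 0.486 CPM (fold 0.127, adjusted p = 0.0137), and the lectin Clec10a fell with a fold of 0.160. The other genes among the 10 that fell most were Tox2, an HMG-box factor, Abcg3, a transporter, St8sia4, which makes polysialic acid, Gprc5c and Mmp13, with folds of 0.163, 0.183, 0.198, 0.201 and 0.201.

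The list of macrophage markers gave other counts. Of 20 tested markers 1 rose and none was called lower by edgeR, with 1 lower at an unadjusted p under 0.05 and 1 in DESeq2 (1 rose and 3 fell with the length trend removed), and the list's median log2 fold change was -0.23, or 0.02 with the length trend removed. Its summed level ran from 13909 to 21437 FPKM unstimulated and from 13929 to 16407 FPKM with TGF-β1, so the groups overlapped. The marker that rose was Cx3cr1, the receptor of fractalkine, at 86.5, 65.9 and 102 CPM unstimulated and 272, 259 and 264 CPM with TGF-β1 (fold 3.13, adjusted p = 0.00921). Cd14, another of these markers, was at 73.1, 93.0 and 51.1 FPKM unstimulated and at 26.6, 27.7 and 34.2 FPKM with TGF-β1, without overlap. The part of other cell types in the changes of Trem1, Cx3cr1, Nrros, C5ar1 and the genes that fell was not tested. Of 8 tested pericyte and smooth muscle markers 3 rose, Rgs4, Mcam and Cspg4, with folds of 4.16, 2.85 and 2.47. None of them was called lower by edgeR, but 1 was lower at an unadjusted p under 0.05, 1 in DESeq2 and 1 with the length trend removed. Anpep of this list was at 50.8, 40.1 and 54.2 FPKM unstimulated and at 33.3, 26.4 and 34.6 FPKM with TGF-β1, without overlap. The summed level of the 12 listed genes was 55.8 to 81.0 FPKM unstimulated and 77.2 to 89.9 FPKM with TGF-β1. No fibroblast, endothelial, cardiomyocyte, epicardial or lymphocyte and neutrophil marker was called by edgeR. At an unadjusted p under 0.05, 2 of 16 fibroblast, 8 of 19 endothelial, 2 of 7 cardiomyocyte and 1 of 9 epicardial markers differed, and DESeq2 called 1, 3, 0 and 1 of them. With the length trend removed 3 endothelial markers rose and 4 fell, 1 fibroblast marker rose and 1 fell, and 1 epicardial marker fell. The fibroblast marker that rose in that fit was Pdgfrb, with a log2 fold change of 0.81 (adjusted p = 0.00304).

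Metabolic genes were called singly. Hk2, a hexokinase, went from 25.1, 20.3 and 36.7 CPM to 105, 84.6 and 94.9 CPM (fold 3.46, adjusted p = 0.0155), and with the lactate transporter Slc16a3 it made up the 2 called of 25 glycolysis genes. Gclm, a subunit of the enzyme that starts glutathione synthesis, went from 166, 157 and 176 CPM to 341, 346 and 329 CPM (fold 2.04, adjusted p = 0.0121). Ncf1, a subunit of the phagocyte oxidase, rose with a fold of 1.95, and with Nox4 these were the 3 called of 33 oxidase and antioxidant genes. Creb3l2, a transcription factor of the secretory pathway, went from 83.0, 53.2 and 122 CPM to 452, 333 and 367 CPM (fold 4.46, adjusted p = 0.0198) and was the only one called of 29 genes of the unfolded protein response and secretory machinery. Among 29 genes for amino acid synthesis and transport, Slc1a4 rose, and of 25 CDK inhibitors and p53 targets Gadd45b rose and Sesn1 fell. Of 25 YAP/TAZ pathway genes Ctgf and Nuak2 rose. Of 34 cell cycle genes edgeR called 0, with 5 higher at an unadjusted p under 0.05 and the smallest adjusted p, 0.0711, for Mcm6, a helicase subunit of DNA replication. DESeq2 called 4 of them higher, and edgeR 2 once the length trend was removed.

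The libraries differed in how their counts depended on gene length. The slope of the log2 deviation of a library from the mean of the 6 was -0.05, -0.33 and 0.21 per doubling of gene length in unstimulated replicates 1, 2 and 3, and 0.17, -0.05 and 0.06 in TGF-β1 replicates 1, 2 and 3. Unstimulated replicates 2 and 3 therefore leaned in opposite directions, and the groups overlapped. The mean slopes of the groups differed by 0.12, with p = 0.6 in a two-sided exact permutation test, in which 3 libraries against 3 cannot go below 0.1. In the shortest tercile of the tested genes, up to 2291 bases, unstimulated replicate 2 had a median log2 deviation of 0.43 from the mean of the 6 libraries, and unstimulated replicate 3 stood at -0.26. The biological coefficient of variation, which measures replicate spread after counting noise is set aside, was 0.312 in the unstimulated and 0.135 in the stimulated group.

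**Figure D4:**
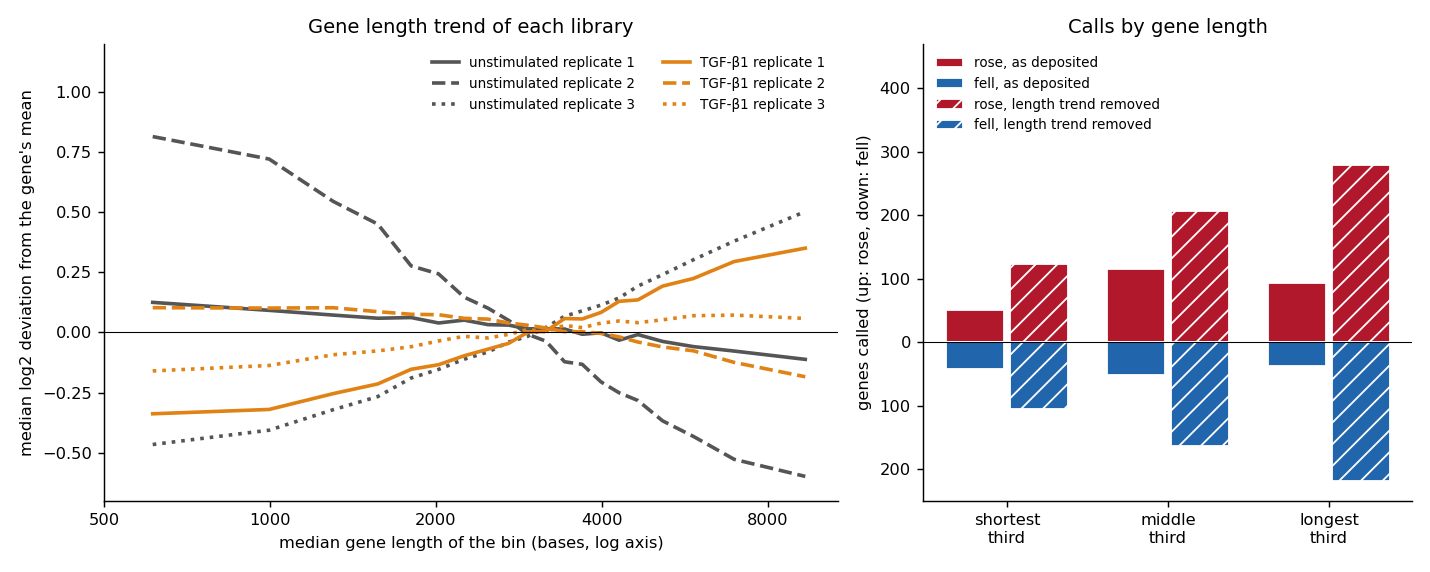
Left, median log2 deviation of each control library from the gene's mean over the 6 libraries (vertical) in 20 bins of tested genes ordered by length (horizontal, bases, log axis), grey for unstimulated and orange for TGF-β1. Right, genes that rose (above 0) and fell (below 0) in each tercile by length, in the counts as deposited (plain) and with the length trend removed (hatched). Unstimulated replicates 2 and 3 slope in opposite directions, and the share of called genes that rose in the middle and longest tercile goes from 69.3% and 71.2% to 55.8% and 56.0% after removal.

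Called genes were tilted by length before the trend was removed. The median log2 fold change over all genes was -0.21 in the shortest tercile, -0.01 in the middle tercile and 0.07 in the longest tercile. In the shortest tercile 51 genes rose and 42 fell, in the middle tercile 115 rose and 51 fell, and in the longest tercile 94 rose and 38 fell. The share that rose was therefore 54.8%, 69.3% and 71.2%. With each library's trend removed by a loess offset, the shares were 53.7%, 55.8% and 56.0%. The medians then lay between -0.07 and -0.04, which follows from fitting the offset to these same libraries. With the offset 1098 genes were called, 609 that rose and 489 that fell, which are 7.54%, 4.18% and 3.36% of the genes tested. Of the 391 genes 382 were called again in the same direction, and 716 others were added. The 9 that were lost were Bhlhe41, Chsy1, Cpne5, Enpp1, Nfia, Pde7a, Runx2, Slc15a3 and Zfp451, all with a gene length of at least 4167 bases.

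Removing the trend also narrowed the spread between libraries, with a biological coefficient of variation of 0.187 against 0.25 over the 6 control libraries. Because the offset was fitted to these libraries, some narrowing follows from the removal itself. Leaving out each library in turn then gave 392 to 1790 called genes, and 265 of the 391 genes were called in all 6 of these fits. As deposited, 302 of the 391 were called in exactly 2 of the 6 fits, and 14 in 5, among them Pmepa1, Tgfbi, Hbegf, Rasl11b, Ada, Clec4a1 and Abcg3. The cytosolic ribosomal proteins are short transcripts, and how far the length trend accounts for their values was not tested. Of 81 tested 0 were called by edgeR, by DESeq2, with the length trend removed or at an unadjusted p under 0.05, and their median log2 fold change went from -0.44 to -0.17 with removal. Rpl37a, the member with the smallest adjusted p, was at 412, 965 and 188 CPM unstimulated and at 239, 388 and 303 CPM with TGF-β1, so unstimulated replicates 2 and 3 held its highest and lowest values.

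The same stimulation in Smad7-KO cells offered a comparison in 6 libraries that were not used above. In those, 3792 of 14401 genes changed, 1943 that rose and 1849 that fell, or 26.3%, 13.5% and 12.8%. Of the 391 genes called in control cells 383 could be tested, 382 had the same sign, 372 were called in the same direction and 0 in the opposite one by edgeR. Over all genes tested in both, 68.3% had the same sign. The genes gained by removing the length trend behaved alike, with 661 of 707 called in the same direction in Smad7-KO cells. Spread differed between the genotypes, with a biological coefficient of variation of 0.0525 in unstimulated and 0.0977 in TGF-β1 Smad7-KO libraries, so the larger number of calls does not show a larger response.

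**Figure D5:**
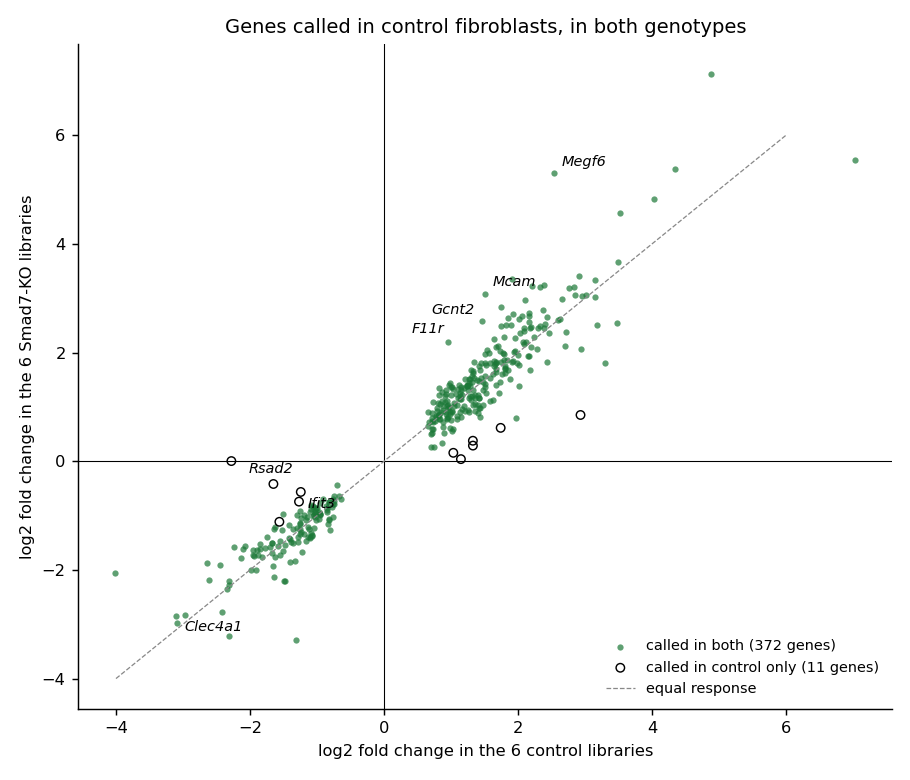
Log2 fold change with TGF-β1 in the 6 control libraries (horizontal) and in the 6 Smad7-KO libraries (vertical) for the 383 genes called in control cells and tested in both, with 1 point a gene. Filled green points are the 372 called in both, open points the 11 called in control cells only, and the dashed line marks equal change. Nearly all points lie in the quadrants of equal sign, and Mcam, F11r, Gcnt2 and Megf6 lie above the line. Megf6 was at a mean of only 0.119 CPM in unstimulated Smad7-KO libraries. The edgeR interaction test did not call it (adjusted p = 0.410).

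Single genes had these values in the other genotype. The log2 fold change in Smad7-KO cells was 2.28 for Ctgf, 2.57 for Pmepa1, 1.76 for Skil, 0.97 for Tgif1 and 2.62 for Ada. Smad7, which Cre deletes, still gave reads and rose from 29.2 to 76.8 CPM on average, a log2 fold change of 1.40 against 0.97 in control cells, a difference that the interaction test did not call. For Slc40a1, Clec7a and Mmp13 it was -2.78, -2.28 and -2.21. Genes called there and not in control cells included Il11 with 2.57 (adjusted p = 0.000104), Postn with 0.64 (adjusted p = 1.4e-05) and Acta2 with 0.41 (adjusted p = 0.000344), by edgeR. Id1 had 1.15 in Smad7-KO cells (adjusted p = 3.33e-06) against -0.94 in control cells, and the test of the difference gave an adjusted p of 0.803. The fall of the interferon-stimulated genes Ifit3 and Rsad2 was not called in Smad7-KO cells, with log2 fold changes of -0.57 and -0.42 (adjusted p = 0.269 and 0.766), whereas Gbp7 fell there as well, by 1.65 on the log2 scale (adjusted p = 2.14e-06). The edgeR interaction test called none of these 3 as different between the genotypes (adjusted p = 0.980 for each). Tspan2, which rose in control cells, had a log2 fold change of 0.04 there. A test of the difference in response between the genotypes over 12 libraries called 3 of 15150 genes, or 0.0198%, which were Mcam, F11r and Gcnt2. That fit shared its estimate of spread over both genotypes, although the control libraries were more variable.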

How the data were processed

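RNA-Seq was performed on 12 libraries of cultured mouse cardiac fibroblasts, 3 in each of 4 groups, and the 6 control libraries are analysed here. The authors deposited raw read counts per gene and FPKM values, and their processing notes name CASAVA, TopHat2 2.0, HTSeq 0.6.1 and Cufflinks 2.1.1, with the builds mm10 and GRCm38.p6. Whether counting used strand is not given in the sources used here, so overlapping and antisense genes are uncertain. The deposited FPKM values are exactly these counts scaled by library total and gene length, and served for marker sums only.

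Differential expression was tested by robust quasi-likelihood in edgeR 4.0.16 (R 4.3.3) after filterByExpr (minimum count 10) and TMM scaling. The fit used only the 6 control libraries, because their spread was larger than that of the Smad7-KO libraries. Smad7-KO libraries were fitted apart, and the interaction over all 12 with a shared spread. Adjusted p values are Benjamini-Hochberg values over all genes tested, with a threshold of 0.05. Standard errors derive from the log2 fold change and its F statistic, and CPM are TMM-normalized within each genotype. The length trend of each library was removed by a loess offset on log2 gene length (span 0.3). Alternatives were DESeq2 1.42.0, its size factors, upper-quartile scaling, no filter, all 12 libraries, a replicate block and leaving out each library. Procedures were tested on simulated counts.

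Named genes were 14 chosen TGF-β genes, the 15 that rose and 10 that fell most among called, non-overlapping genes whose mean log2 CPM was 1 or more, and up to 4 called members of each of 37 lists with the smallest adjusted p. Other called list members were named too. After their values were seen, the genes lost with the length trend and the genes that differ by genotype were added. Notch4, Cd14 and Tspan2 in Smad7-KO cells were added in the same way. Members, lists and the rule were chosen with earlier results of these data known. Replicates were compared by chi-square, which was at least 3.05 per gene, above sampling noise, so none was counted as a repeat. A gene and a list that rests on it are not reported here.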

Additional observations from a re-analysis of the deposited data

Results flagged for a closer look

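For 3 genes the TGF-β1 response was not the same in both genotypes, by the interaction term over 12 libraries (edgeR, quasi-likelihood, Benjamini-Hochberg adjusted p). Mcam, an adhesion molecule of the immunoglobulin family also named CD146, had a response 1.56 larger on the log2 scale in Smad7-KO cells (standard error 0.163, adjusted p = 0.0115). It was at 38.7 ± 5.79 CPM in unstimulated and at 110.5 ± 5.09 CPM in TGF-β1 control libraries (SD, n = 3). In Smad7-KO libraries it was at 8.89, 9.14 and 8.10 CPM unstimulated and at 75.5, 70.7 and 75.7 CPM with TGF-β1, so it was lower in both conditions and rose by a larger factor. F11r, the junctional adhesion molecule A, had a response 1.23 larger (standard error 0.152, adjusted p = 0.0317). It was at 34.6, 30.9 and 36.7 CPM unstimulated and at 61.3, 71.2 and 66.0 CPM with TGF-β1 in control libraries, against 11.8, 14.6 and 13.3 CPM and 62.8, 58.5 and 61.4 CPM in Smad7-KO libraries. The stimulated levels of F11r were thus close and the unstimulated levels apart. CPM were scaled separately in each genotype, and the levels of Mcam and F11r were not tested between genotypes. Gcnt2, a glycosyltransferase that branches poly-N-acetyllactosamine, had a response 1.10 larger (standard error 0.146, adjusted p = 0.0439). It was at 13.5, 14.7 and 15.9 CPM unstimulated and at 41.6, 39.6 and 40.2 CPM with TGF-β1 in control libraries, against 11.5, 9.91 and 10.6 CPM and 67.7, 59.6 and 63.0 CPM in Smad7-KO libraries. With a replicate block edgeR called 0 genes for this difference, with 340 at an unadjusted p under 0.05. Leaving out each of the 12 libraries in turn gave 0 genes in 9 fits, those without each of the 6 Smad7-KO libraries, unstimulated control replicate 1 and TGF-β1 control replicates 2 and 3, with 308 to 414 genes at an unadjusted p under 0.05.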

How the results depend on the processing

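The 391 genes called rest on 3 libraries against 3, and 31 of them had a mean log2 CPM under 1, where values rest on few reads. edgeR called 394 genes with DESeq2's size factors, 405 with upper-quartile scaling and 436 without the filter. Counts were larger with all 12 libraries (1268), with DESeq2 (1060, all 391 among them), with the length trend removed (1098), and with its removal in DESeq2 (1615). Leaving out each library gave 0 to 673 calls (1402 genes at an unadjusted p under 0.05 where 0 were called), and 392 to 1790 with the length trend removed (1208 without unstimulated replicate 3). The cause was not tested. Replicate numbers are shared between groups only as labels. Unstimulated replicates 1, 2 and 3 had correlations of deviations of 0.07, 0.57 and 0.02 with their own number, and unstimulated replicate 3 correlated best with TGF-β1 replicate 1 (0.60). With the replicate block 525 genes were called, and 1224 with the block and the length trend removed.

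For the difference between genotypes 8 genes were called with the length trend removed and 16 with DESeq2, 0 with the replicate block (340 at an unadjusted p under 0.05), and 0 to 6 with each library left out. In Smad7-KO cells 4641 genes were called with the length trend removed, and 2891 to 4604 with each library left out. Over 106 named genes, 1782 of 2226 alternative values kept direction and side of the threshold, 371 kept direction but were no longer called, 63 became called and 10 changed sign. Those were values of genes not called, with libraries left out. Fn1 ran from -0.26 to 0.69, and from -0.19 with the length trend removed, with signs turned without unstimulated replicate 2 and without TGF-β1 replicate 1 (-0.084, or -0.014 with the trend removed). Csf3r ran from -0.016 to 0.35, with signs turned without unstimulated replicate 2 (-0.019 with the trend removed) and without TGF-β1 replicate 3 (-0.012, or -0.062 with the trend removed). Rpl37a ran from -1.15 to 0.062, with its sign turned without unstimulated replicate 2 (0.12 with the trend removed).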
